A study of Mus musculus with 6 samples.

Results

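Manf, Creld2 and Sdf2l1 encode soluble proteins of the endoplasmic reticulum (ER) whose genes are switched on when unfolded protein builds up there, and the KDEL receptors bring ER proteins that have escaped to the Golgi back to the ER. The set described here holds 9 of the 55487 genes in the count table: these genes, their paralogs Cdnf, Creld1 and Sdf2, and the receptor genes Kdelr1, Kdelr2 and Kdelr3. They were taken by name, and all 9 were found once each in the table. The set was chosen from an earlier analysis of the same libraries, in which Manf and Creld2 were lower with PTHrP. The difference between the groups is therefore given for the 9 genes as a description, with no p-value.

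The RNA came from MIN6 cells, an insulinoma line from mouse that secretes insulin and stands in for the beta cell of the pancreas. In 1 group the cells had been transfected with full-length PTHrP, the parathyroid hormone-related protein, whose gene is Pthlh, and in the other with the empty vector DsRed as the control. Both groups were transfected with lipofectamine at confluency, RNA was taken at most 3 days later, and there were 3 libraries in each group. The share of cells that took up the plasmid is not given in the labels, and every difference compares PTHrP with DsRed, averaged over transfected and untransfected cells of a culture, with no untransfected library beside them.

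The ER lumen is where secreted proteins such as insulin fold, and a beta cell sends a heavy load through it. When folding falls behind, the unfolded protein response is started by the membrane sensors IRE1, PERK and ATF6, and the transcription factors XBP1 and cleaved ATF6 raise the genes of ER chaperones. MANF is a small protein of the lumen that binds the chaperone BiP and is also secreted under stress, and CDNF is its paralog. CRELD2 is a stress-inducible protein of the lumen with thiol-exchange activity, whereas its paralog CRELD1 is anchored in membranes. SDF2L1 and SDF2 are lumenal proteins with MIR domains that work with BiP co-chaperones. KDEL receptors bind a short signal at the C-terminus of lumenal proteins in the acidic Golgi and carry them back in vesicles coated by COPI.

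The promoters of 4 of the genes are shown before the values: Creld2 with its paralog Creld1, which is not known as stress-induced, Sdf2l1, and Kdelr3 for the element it holds. RefSeq promoters of GRCm38.p6, which run from 250 bases before the start site to 50 after it, were found for 7 of the 9 genes and not for Manf and Kdelr2. The motifs searched on both strands were the ER stress element ERSE (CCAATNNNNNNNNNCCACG), its second form ERSE-II (ATTGGNCCACG), the core of the unfolded protein response element UPRE (TGACGTGG), a cAMP element (TGACGTCA), and the boxes CCAAT and CCACG alone. ERSE and ERSE-II each contain a box of both kinds or its complement, and the UPRE core read on the other strand starts with CCACG. In the sequences, 5′ to 3′ along the gene, capitals mark each CCAAT and CCACG box on either strand (ATTGG and CGTGG on the other) and the UPRE core.

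Creld2, chr15:88819396-88819695, + strand: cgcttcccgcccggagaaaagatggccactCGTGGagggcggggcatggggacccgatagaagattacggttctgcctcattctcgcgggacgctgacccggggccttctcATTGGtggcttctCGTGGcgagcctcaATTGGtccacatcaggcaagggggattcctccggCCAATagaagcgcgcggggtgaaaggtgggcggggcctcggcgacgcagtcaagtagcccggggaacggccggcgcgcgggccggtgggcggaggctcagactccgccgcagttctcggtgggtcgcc

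Creld1, chr6:113483106-113483405, + strand: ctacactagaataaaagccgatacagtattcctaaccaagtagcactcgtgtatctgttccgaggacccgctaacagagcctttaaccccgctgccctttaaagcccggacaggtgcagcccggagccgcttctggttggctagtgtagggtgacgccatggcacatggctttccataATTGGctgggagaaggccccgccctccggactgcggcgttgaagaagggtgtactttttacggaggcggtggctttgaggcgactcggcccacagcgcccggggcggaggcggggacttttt

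Sdf2l1, chr16:17132334-17132633, - strand: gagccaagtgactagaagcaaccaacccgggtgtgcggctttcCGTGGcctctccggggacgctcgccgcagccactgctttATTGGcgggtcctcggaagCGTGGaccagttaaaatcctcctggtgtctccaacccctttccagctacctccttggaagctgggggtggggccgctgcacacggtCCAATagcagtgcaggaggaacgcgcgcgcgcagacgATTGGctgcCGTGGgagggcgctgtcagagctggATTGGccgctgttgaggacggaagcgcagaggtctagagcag

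Kdelr3, chr15:79516158-79516457, + strand: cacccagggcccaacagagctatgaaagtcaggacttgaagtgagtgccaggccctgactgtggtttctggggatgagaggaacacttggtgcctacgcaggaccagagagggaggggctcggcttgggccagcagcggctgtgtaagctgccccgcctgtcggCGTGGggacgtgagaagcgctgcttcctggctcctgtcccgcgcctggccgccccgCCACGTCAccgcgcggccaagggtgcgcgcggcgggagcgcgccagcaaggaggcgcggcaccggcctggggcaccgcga

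Creld2 was the one gene of the 7 with a complete ERSE, which lies on the other strand and begins 126 bases before the start site. An ERSE was present in 0.119% of the 32851 promoters in the table. Kdelr3 was the one gene with a UPRE core, beginning 30 bases before the start site, and 0.676% of all promoters had one. None of the 7 held an ERSE-II or the cAMP element, which were present in 0.0365% and 1.79% of all promoters. Sdf2l1 had no complete element but 3 CCACG and 4 CCAAT boxes, against 2 and 3 in Creld2. Sdf2, the paralog of Sdf2l1, had neither box, and Kdelr1 had neither. Creld1 had 1 CCAAT and no CCACG, and Cdnf had 3 CCAAT and no CCACG. The boxes are common, since 32.8% of all promoters held CCACG and 37.4% held CCAAT. A match describes the letters in this window only.

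Among the other ER genes examined, an ERSE was found in the promoters of Hspa5 (BiP), Hsp90b1 (GRP94), Calr (calreticulin), Pdia6 and Dnajc3, and the ERSE-II in that of Dnajb11. Of 40 lumenal ER genes listed, 33 had a promoter in the table, of which 4 held an ERSE and 1, Txndc5, a UPRE core. Of 30 genes of the COPI route, 27 had a promoter and none held an ERSE. Copb1, Copb2, Arf1 and Gbf1 had a UPRE core, and Cope had the cAMP element. Of 10 genes that encode known partners of the set, 8 had a promoter, of which 2 held an ERSE and 1 the ERSE-II. Of 17 sensors and transcription factors of the unfolded protein response, 14 had a promoter. None of these held an ERSE, an ERSE-II, a UPRE core or the cAMP element.

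The libraries held 84427033 to 94613684 counts, and the filter on low counts kept 21141 genes, among them all 9 of the set. As a check of the labels, counts of Pthlh were 697, 553 and 797 with PTHrP, against 0, 4 and 8 with DsRed. The 10 beta cell markers were all present, with a summed level of 52649 to 59515 CPM (counts scaled to library size) in PTHrP and 53983 to 65821 CPM in DsRed. Of 20 markers of other islet, exocrine, stromal and immune cells, 13 stayed under 1 CPM in every library. The summed level of the 20 was 148 to 188 CPM in PTHrP and 159 to 164 CPM in DsRed, nearly all of it Gcg, the alpha cell hormone gene, at 135 to 175 CPM. PTHrP replicate 2 stood apart from the others. Of 8952 genes with a mean of at least 10 CPM, 60 were above all other libraries there by at least 0.5 on the log2 scale and 230 were below all others by as much, against at most 2 in either direction for any other library. Whether the replicates were separate cultures is not in the labels, so a p-value here reflects the spread between these libraries alone, which may be technical.

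Levels per library are CPM scaled with TMM factors, and a log2 fold change is the PTHrP level minus the DsRed level, with an approximate standard error (SE) from a fit over all genes. Of the 9 genes, 6 had a negative and 3 a positive log2 fold change, and the median was -0.10. Over all genes tested the median was -0.01, and 51.3% had a negative value. In such bulk libraries a smaller share of cells with a transcript and less of it in each cell cannot be told apart. Every PTHrP library lay below every DsRed library for 2 members, Manf and Creld2, and above for 2, Cdnf and Sdf2. The same held for 7.88% (below) and 8.45% (above) of all genes tested.

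**Figure D1:**
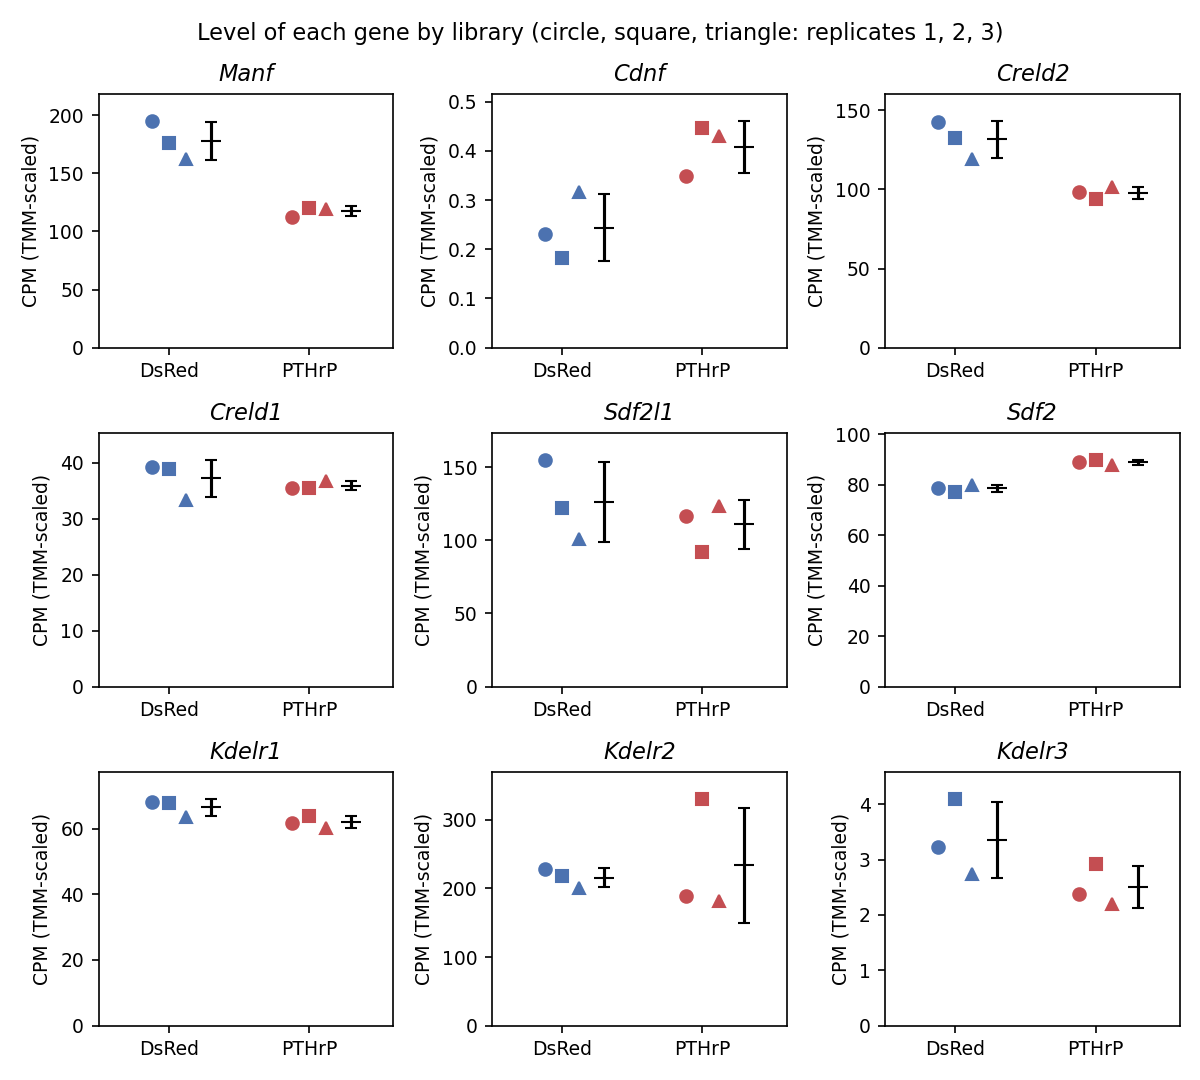
Level of each of the 9 genes in TMM-scaled CPM (vertical axes, linear and starting at 0) for DsRed (blue) and PTHrP (red). Symbols are single libraries, and the black mark and bar are the mean ± SD of 3 libraries. Manf and Creld2 lie lower in every PTHrP library, and Kdelr2 is high in PTHrP replicate 2 alone, at 331 CPM.

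Manf lay lower with PTHrP in every library. It was at 112, 120 and 119 CPM in the PTHrP libraries and at 195, 176 and 162 CPM in the DsRed libraries. The lowest DsRed library, replicate 3, still lay above the highest PTHrP library. The means were 117 ± 4.45 CPM with PTHrP and 178 ± 16.5 CPM with DsRed (SD, n = 3 each), a log2 fold change of -0.60 with an SE of 0.07, or 0.659-fold. The DsRed libraries were more spread than the PTHrP libraries, and most of that spread was between DsRed replicates 1 and 3.

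Manf lies on chromosome 9 at 106838312 to 106891979 (GRCm38, minus strand, protein-coding). Its exons overlap those of Dcaf1 over 146 bases and of 4930524O07Rik over 166 bases on the opposite strand, and of Rbm15b over 14 bases on the same strand. Whether counting used strand is not given in the sources used here. The means of Dcaf1 were 137 (PTHrP) and 145 CPM (DsRed), those of Rbm15b 131 and 134 CPM and those of 4930524O07Rik 0.296 and 0.483 CPM. The part of their reads in the counts of Manf was not tested. Without any 1 library the log2 fold change of Manf lay between -0.66 and -0.53.

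Cdnf, the paralog of Manf, was close to the limit of detection. Its counts were 30, 38 and 41 with PTHrP and 20, 16 and 29 with DsRed. The higher values were all in PTHrP, with means of 0.409 ± 0.0528 and 0.244 ± 0.0680 CPM. This gave 0.74 on the log2 scale (SE 0.45), which is opposite in sign to that of Manf. Counts this low carry a large counting error, and the estimate ranged from 0.57 to 0.98 when any 1 library was left out. Cdnf lies on chromosome 2 at 3513030 to 3526376.

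Per length of exon, Manf RNA exceeded Cdnf RNA by a ratio of 284, 238 and 244 in the PTHrP libraries and 744, 852 and 452 in the DsRed libraries. The ratio was thus lower in every PTHrP library, with Manf lower and Cdnf higher there. Its size depended on the length used, with a median over the libraries of 368 per exon length and 559 per length of the longest transcript. Cdnf contributed little to the sum of the 2 genes in either group.

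Creld2 also lay lower in every PTHrP library. It was at 98.5, 94.0 and 101 CPM in PTHrP and at 143, 133 and 119 CPM in DsRed. As for Manf, the DsRed libraries ranged widely and replicate 3 was the lowest of them. The means were 97.9 ± 3.69 and 132 ± 11.8 CPM (SD, n = 3 each), a log2 fold change of -0.43 with an SE of 0.07. It lay between -0.49 and -0.37 when any 1 library was left out. Creld2 is on chromosome 15 at 88819646 to 88826683, and no exon of another annotated gene overlaps it.

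Creld1, the membrane-anchored paralog, showed no such separation. It was at 35.4, 35.5 and 36.8 CPM in PTHrP and at 39.3, 38.9 and 33.3 CPM in DsRed, and the groups overlapped because DsRed replicate 3 was the lowest of all 6 libraries. The log2 difference was -0.05 (SE 0.08). Per length of exon, Creld2 exceeded Creld1 by 8.65, 8.24 and 8.56 in the PTHrP libraries and by 11.3, 10.6 and 11.1 in the DsRed libraries. This ratio had less spread within each group than the level of Creld2 itself, with means of 8.49 ± 0.214 and 11.0 ± 0.379. Its size depended on the length used, with a median of 9.62 per exon length, 5.22 by the longest transcript and 3.71 by coding length. In DsRed replicate 3 both genes were low, so the ratio there was close to that of the other DsRed libraries. Creld1 is on chromosome 6 at 113483297 to 113493343.

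Sdf2l1 varied more between libraries of the same group than between the groups. It was at 117, 92.0 and 124 CPM in PTHrP and at 155, 122 and 101 CPM in DsRed. PTHrP replicate 2 was the lowest and DsRed replicate 1 the highest, while DsRed replicate 3 lay below PTHrP replicates 1 and 3. The means of 111 ± 16.6 and 126 ± 27.2 CPM (SD, n = 3 each) gave a log2 fold change of -0.18 with an SE of 0.18. The estimate was -0.01 without DsRed replicate 1 and -0.32 without DsRed replicate 3. Sdf2l1 is on chromosome 16 at 17130138 to 17132383.

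Sdf2, which is not known as a stress-induced gene, had the smallest spread of the set on the log2 scale. It was at 88.9, 89.9 and 87.9 CPM in PTHrP and at 78.7, 77.0 and 80.0 CPM in DsRed, so every PTHrP library was higher. The log2 difference was 0.18 (SE 0.06), and it stayed between 0.17 and 0.19 when any 1 library was left out. Sdf2 lies on chromosome 11 at 78245746 to 78255496. Its exons overlap those of Supt6 on the opposite strand over 242 bases, 16.0% of the exon bases of Sdf2. The means of Supt6 were 179 (PTHrP) and 189 CPM (DsRed), and the part of these reads in the counts of Sdf2 was not tested.

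**Figure D2:**
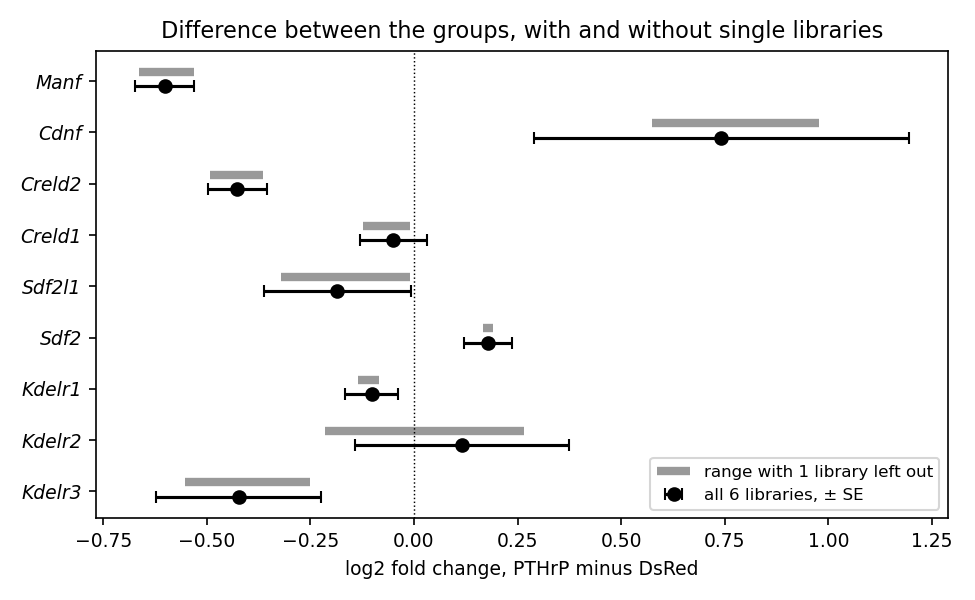
Log2 fold change, PTHrP minus DsRed, of the 9 genes. Black points and bars are the estimate from all 6 libraries ± SE, and grey bars are the range of the estimate when 1 library is left out. The range of Kdelr2 runs from -0.22 to 0.27 across 0. The ranges of the 6 genes with a negative estimate stay below 0, and those of Cdnf and Sdf2 above 0.

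The KDEL receptors differed from each other mainly in level. Kdelr2 was the most abundant, Kdelr1 came next and Kdelr3 was low, and per length of exon their mean shares of the receptor RNA were 76.7%, 22.0% and 1.32%. Kdelr1 was at 61.6, 63.9 and 60.2 CPM in PTHrP and at 68.2, 67.7 and 63.5 CPM in DsRed, and the groups overlapped by PTHrP replicate 2 and DsRed replicate 3 only. Its log2 difference was -0.10 (SE 0.06). Kdelr3 was at 2.37, 2.93 and 2.21 CPM in PTHrP and at 3.23, 4.10 and 2.73 CPM in DsRed, with the same 2 libraries overlapping. Its log2 difference was -0.42 (SE 0.20), from 204 to 359 counts per library.

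Kdelr2 had the widest spread on the log2 scale between libraries of 1 group among the 9 genes. It was at 189, 331 and 182 CPM in PTHrP and at 229, 218 and 201 CPM in DsRed. PTHrP replicate 2 alone was above the DsRed libraries, and the other PTHrP libraries were both below them. The log2 difference was 0.12 (SE 0.26) over all 6 libraries, and -0.22 without PTHrP replicate 2. Among the 8952 genes with at least 10 CPM, Kdelr2 ranked 51 by its distance above the other 5 libraries in PTHrP replicate 2, a distance of 0.53 on the log2 scale. In that library its share of the KDEL receptor RNA per length of exon was 83.3%, against 74.7% to 76.4% in the other 5.

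Without PTHrP replicate 2, a choice made after its values were seen, Kdelr1, Kdelr2 and Kdelr3 all lay lower in both remaining PTHrP libraries than in every DsRed library. The count of members lower in this way was then 5, and 15.3% of all genes tested were lower in the same libraries. Cdnf and Sdf2 were still the 2 members that were higher, as were 15.2% of all genes. Leaving out DsRed replicate 3 also gave 5 lower members, with Creld1 in place of Kdelr2, and 14.1% of all genes were then lower. Kdelr1 is on chromosome 7 at 45872772 to 45883732, Kdelr2 on chromosome 5 at 143403838 to 143421901 and Kdelr3 on chromosome 15 at 79516411 to 79527739. Exons of Kdelr3 share 4 bases with Ddx17 on the opposite strand.

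**Figure D3:**
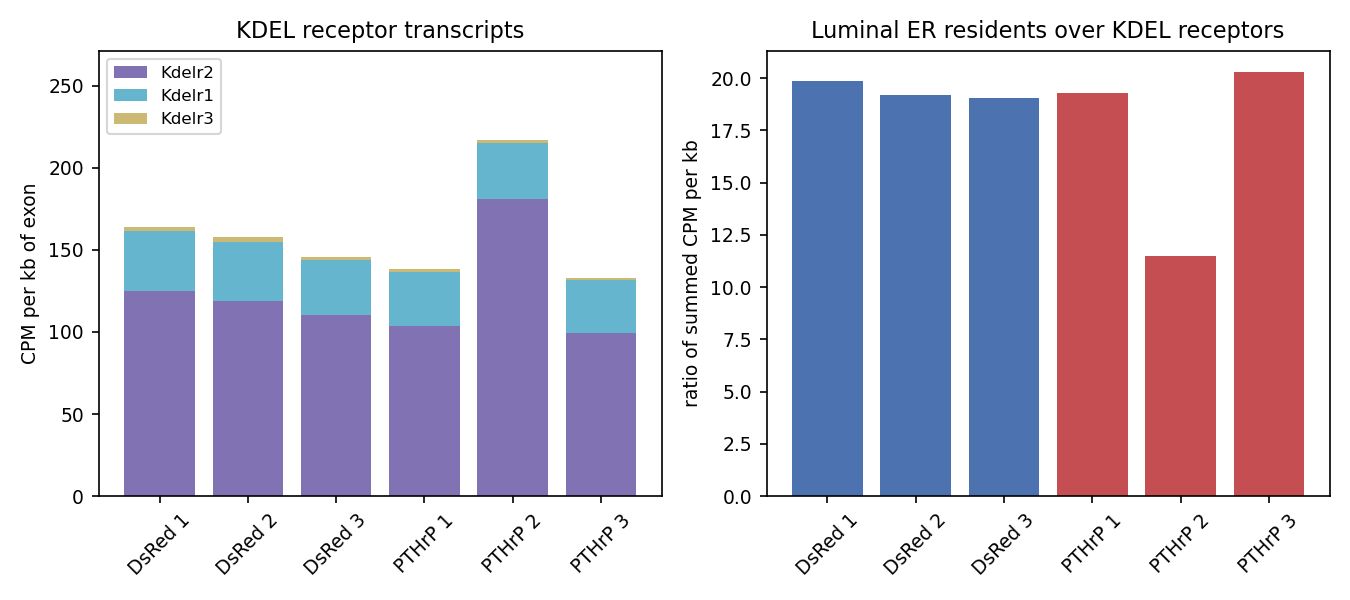
Left, summed level of Kdelr2, Kdelr1 and Kdelr3 in CPM per kb of exon in each library. Right, summed CPM per kb of 40 genes listed as lumenal ER proteins divided by that of the 3 receptors. The ratio lies between 19.0 and 20.3 in 5 libraries and is 11.5 in PTHrP replicate 2.

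The RNA of the genes listed as lumenal ER proteins was set against that of the receptors in each library. The list was made by gene name. The C-terminal signals and the compartment of each protein were not checked. Some of the listed proteins may thus not reside in the ER lumen or not be cargo of these receptors. The 40 genes of the list summed to 2668, 2497 and 2703 CPM per kb of exon in PTHrP and to 3258, 3034 and 2779 in DsRed. Every PTHrP library was below every DsRed library in this sum, though PTHrP replicate 3 and DsRed replicate 3 were close. The most abundant genes weigh most in it. Hspa5, which is in the list, was at 1685 CPM in PTHrP replicate 3 and 2209 CPM in DsRed replicate 3. The sum without Hspa5 was not computed. Taken singly, 10 of the 38 tested genes were lower in every PTHrP library and 6 were higher. Of all genes tested, 7.88% were lower and 8.45% higher in this way. The 3 receptors summed to 138, 217 and 133 CPM per kb in PTHrP and to 164, 158 and 146 in DsRed. Dividing the sum of the list by that of the receptors gave 19.3, 11.5 and 20.3 for the PTHrP libraries. For the DsRed libraries it gave 19.9, 19.2 and 19.0. The ratio kept within a narrow range in 5 libraries. PTHrP replicate 2, where Kdelr2 was high, had the lowest ratio.

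Per kb of exon and averaged over the 6 libraries, the order of the genes was Kdelr2 (123 CPM per kb), Sdf2l1 (107), Creld2 (71.7 in PTHrP and 96.3 in DsRed), Sdf2 (55.3), Manf (41.9), Kdelr1 (34.3), Creld1 (8.60), Kdelr3 (2.07) and Cdnf (0.105). Neighbours in this order overlapped over the libraries for Kdelr2 and Sdf2l1, for Sdf2l1 and Creld2, for Sdf2 and Manf, and for Manf and Kdelr1. In PTHrP alone, Manf at 33.3 ± 1.26 was at the level of Kdelr1 at 33.0 ± 0.979, while in DsRed it was above it, at 50.5 ± 4.68 against 35.5 ± 1.39 CPM per kb. The place of Manf depended on the length used. Its 7 annotated transcripts give 3524 exon bases but its longest coding sequence has 537, and per kb of coding sequence it came after Kdelr2 alone, at 275 against 354 CPM per kb.

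Libraries of the same group also differed, a comparison that does not use the difference between the groups. As the deviation from the group mean on the log2 scale, Creld2 was at 0.12, 0.01 and -0.14 in DsRed replicates 1 to 3 and Hspa5, which encodes BiP, at 0.12, 0.01 and -0.13. In PTHrP they were at 0.01, -0.06 and 0.05 for Creld2 and 0.02, -0.06 and 0.03 for Hspa5. Sdf2l1 deviated in the same direction as Hspa5 in 5 of these 6 libraries but further, from 0.32 in DsRed replicate 1 to -0.30 in DsRed replicate 3.

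The Pearson correlation of these deviations with Hspa5 was 0.99 for Creld2, 0.96 for Sdf2l1, 0.88 for Creld1 and 0.78 for Manf. It was 0.49 for Kdelr1, 0.14 for Kdelr3, -0.19 for Kdelr2, -0.59 for Sdf2 and -0.61 for Cdnf. These are 6 points with 2 group means removed, and they share the libraries and their scaling. Creld1, the paralog not known as stress-induced, thus stood with Creld2, Sdf2l1 and Manf at the positive end of this range. Against Xbp1 in place of Hspa5, the correlation was 0.85 for Manf, 0.58 for Creld2, 0.51 for Sdf2l1 and 0.45 for Creld1. For the other members it ran from -0.10 for Kdelr3 to 0.32 for Kdelr1. Most of the range for Creld2 and Manf came from DsRed replicates 1 and 3.

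**Figure D4:**
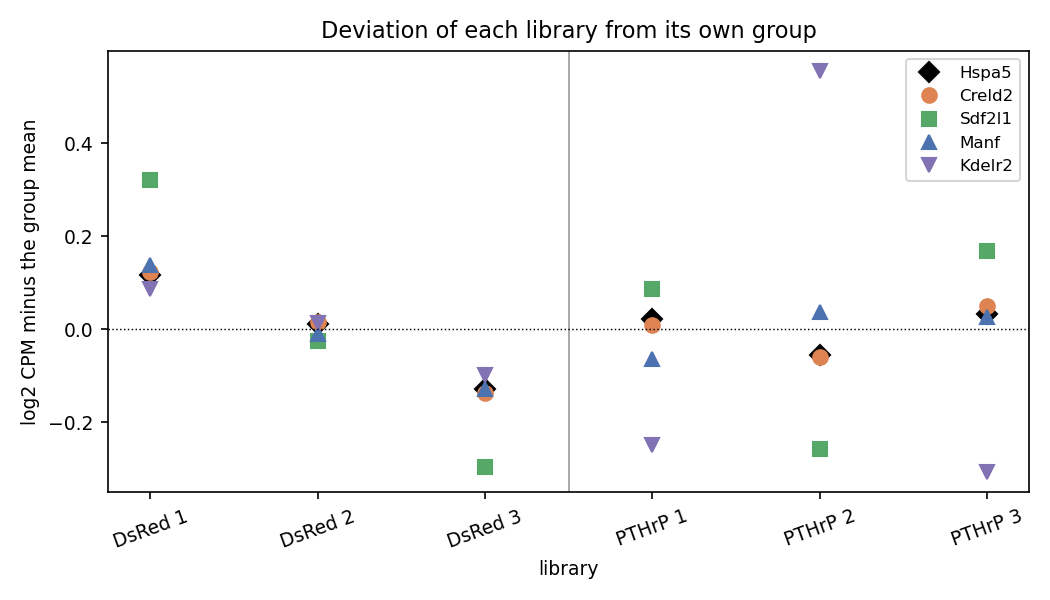
Log2 CPM of each library minus the mean of its own group (vertical axis) for Hspa5, Creld2, Sdf2l1, Manf and Kdelr2 in the 6 libraries. Creld2 lies on Hspa5 throughout, Sdf2l1 spreads further, from 0.32 to -0.30, and Kdelr2 is at 0.56 in PTHrP replicate 2.

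Over all 6 libraries, group difference included, the 5 genes most like each inducible gene were named by the Pearson correlation of log2 CPM among 8945 genes with at least 10 CPM. For Manf they were Calu, Bet1, Rpain, Ctdspl2 and Slc30a5, with correlations of 0.997 to 0.991. For Creld2 they were Serp1, Arf4, Srsf1, Hspa13 and Emilin1 (0.998 to 0.995). For Sdf2l1 they were Copb2, Sh3gl1, Chpf2, Mbtps2 and P4hb (0.995 to 0.984). The genes were picked for these correlations, which are a description over 6 libraries.

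The other genes of the pathway were taken from 4 lists and tested in the fit over all genes, in which 0.0237% of genes passed an adjusted p of 0.05 as lower and 0.0189% as higher, and 1881 of 21141 had an unadjusted p under 0.05. Of the 40 genes listed as lumenal ER proteins, 38 were tested, 1 fell (passed as lower) and none rose (passed as higher). The gene that fell was Hspa5, from 2616, 2430 and 2209 CPM with DsRed to 1672, 1584 and 1685 CPM with PTHrP (log2 fold change -0.55, edgeR quasi-likelihood test, adjusted p = 0.0121). Next came Erp44, a thiol protein that cycles between Golgi and ER by way of KDEL receptors, with means of 74.4 ± 2.49 (PTHrP) and 98.2 ± 4.43 CPM (DsRed, log2 fold change -0.40, adjusted p = 0.0667). Hsp90b1 had -0.25 (adjusted p = 0.228) and the disulfide isomerase Pdia4 -0.41 (adjusted p = 0.252). The list was mixed in sign, with 21 negative and 17 positive fold changes and a median of -0.04, against -0.01 over all genes. An unadjusted p under 0.05 was found for 14 of the 38, 10 lower and 4 higher.

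Of the 30 genes of the COPI retrieval route none passed (edgeR), and 8 had an unadjusted p under 0.05, 7 lower and 1 higher. DESeq2 called none of them either. Arfgap3, which ends the ARF1 cycle on COPI vesicles, was at -0.27 on the log2 scale (adjusted p = 0.303). The small GTPase gene Arf4 had -0.18 (adjusted p = 0.371), Tmed9, a cargo adaptor, -0.16 (adjusted p = 0.388) and the coat subunit gene Arcn1 -0.17 (adjusted p = 0.534). In all 21 of the 30 were negative, with a median of -0.05.

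Of 17 sensors and transcription factors of the unfolded protein response, 1 fell and none rose. The gene was Xbp1, with 346 ± 6.18 (PTHrP) and 459 ± 12.3 CPM (DsRed, log2 fold change -0.41, edgeR adjusted p = 0.0140). The counts are per gene, so forms of the Xbp1 transcript were not told apart, and the activity of XBP1 was not tested. Eif2ak3, which encodes PERK, had -0.20 (adjusted p = 0.348), the ER-anchored factor gene Creb3l2 -0.43 (adjusted p = 0.414) and Nfyc, a subunit of the CCAAT-binding factor NF-Y, 0.15 (adjusted p = 0.510). The list was split in sign, with 9 negative and 8 positive fold changes and a median of -0.02. Of the 17, 4 had an unadjusted p under 0.05, 3 lower and 1 higher.

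Among 10 genes that encode known partners of the set, 2 fell, Hspa5 and Dnajb9, and none rose. Dnajb9, a BiP co-chaperone, went from 202 ± 10.0 to 138 ± 2.95 CPM (log2 fold change -0.55, edgeR adjusted p = 0.00645). Dnajb11, the co-chaperone found with SDF2 and SDF2L1, had -0.33 (adjusted p = 0.140), and Dnajc3 had -0.39 (adjusted p = 0.178). Of the 10, 7 had a negative and 3 a positive fold change, with a median of -0.12. An unadjusted p under 0.05 was found for 6, 5 lower and 1 higher. Calls in these lists depended on single libraries. Without PTHrP replicate 2, 4 lumenal ER genes, 1 gene of the COPI route, 1 sensor or factor and 4 partners fell and none rose, against 1, 0, 1 and 2 with all libraries. Over all genes, 71 then passed as lower and 142 as higher, against 5 and 4 with all libraries. The lumenal and partner lists share genes, Hspa5 among them. Without DsRed replicate 1 the adjusted p was 0.0559 for Hspa5, 0.0999 for Xbp1 and 0.0559 for Dnajb9. Without DsRed replicate 2 it was 0.119, 0.150 and 0.0963, and for Xbp1 it was 0.0968 and 0.0741 with PTHrP replicate 1 or 3 left out. With the replicate number as a block, Xbp1 had an adjusted p of 0.0865.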

How the data were processed

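Raw counts per gene and library were deposited by the authors. Per the submitters' processing notes, reads were handled with STAR and featureCounts 2.0.3 on GRCm38. The sources used here do not give the annotation, whether strand was used, or how reads with several matches were counted. The 55774 entries held 287 repeats of Ensembl identifiers with identical counts, which were removed, leaving 55487 genes. Groups and replicate numbers came from the library titles. The chi-square per gene was 8.25 or more for every pair of libraries, so none was counted as a repeat of another.

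Groups were compared by edgeR's quasi-likelihood test (edgeR 4.0.16, R 4.3.3) with robust dispersions and a group term, on 21141 genes kept by filterByExpr and scaled with TMM, two-sided, with Benjamini-Hochberg adjustment over all genes and a threshold of 0.05. Each SE was obtained from the log2 fold change and the root of its F statistic. The step was tested on simulated counts. Alternatives were RLE factors, library sizes alone, no filter, a filter of 1 CPM in 3 libraries, DESeq2 1.42.0, limma-voom (limma 3.58.1), the replicate number as a block, and each library left out. Positions and exon lengths came from GENCODE M21 (GRCm38), promoters from RefSeq (GRCm38.p6). Within-group deviations used log2 CPM after adding 0.5 counts for the 9 genes and a prior count of 2 for Hspa5 and Xbp1.

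The 9 genes, the lists and the tests were chosen with earlier results of these data known. Named genes beyond the 9 are those past the threshold and the 4 with the smallest p in each list, and the 5 most like Manf, Creld2 and Sdf2l1. The log2 distance of 0.5 and the overlap partners were chosen after values were seen. Lists are of gene names, and the C-terminal signals and compartments of their proteins were not checked.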

Additional observations from a re-analysis of the deposited data

How the results depend on the processing

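The log2 fold change of each of the 9 genes moved by less than the spread between replicates in every alternative that gave a value, and kept its sign except for Kdelr2, which was 0.12 with all libraries and -0.22 without PTHrP replicate 2. Cdnf gave no value with the filter of 1 CPM. The number of genes past the threshold, 9, was 14 with library sizes alone, 220 with no filter, 136 with DESeq2 and 18 with limma-voom, and 2 to 213 with 1 library left out, the highest without PTHrP replicate 2. With the replicate block it was 7. Deviations of PTHrP and DsRed libraries with the same replicate number correlated at 0.02, -0.11 and 0.02, and those with different numbers at -0.15 to 0.13. With 3 libraries in each group, these values cannot decide whether the replicate numbers pair the libraries. Of the lumenal ER genes 1 passed, against 6 with no filter, 5 with DESeq2, 2 with limma-voom and 0 to 4 with 1 library left out. Of the sensors and factors 1 passed, against 2 with no filter, 0 with the block and 0 to 1 with 1 library left out. Of the COPI route 0 passed, against 0 to 1. Of the known partners 2 passed, against 4 with no filter, 4 with DESeq2 and 0 to 4 with 1 library left out. The members lower in every PTHrP library numbered 2, and 2 to 5 with 1 library left out, while the share of all genes went from 7.88% to between 11.9% and 15.3%, a comparison added after the data were seen. The cause of these shifts was not tested. Restricting the lumenal list by C-terminal signal was not run. Depth limits Cdnf most, at 16 to 41 counts.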
